A study of Homo sapiens with 8 samples.

Results

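Expression of 9 nuclear genes of mitochondrial calcium uptake and of the mitochondrial outer membrane channels was measured by bulk RNA-seq in Rho0 and parental Ea.hy926 cells. Ea.hy926 is a hybrid of endothelium from the human umbilical vein and the lung carcinoma line A549. The 4 Rho0 libraries were biological replicates of a derivative of Ea.hy926 that lacks oxidative phosphorylation, the term Rho0 standing for loss of mitochondrial DNA, and the 4 parental libraries were biological replicates of unmodified Ea.hy926. Cells of both lines were confluent when collected, and the labels name no other treatment. The genes were MCU, MCUB, MICU2, MCUR1, SMDT1, LETM1, VDAC1, VDAC2 and VDAC3, taken by symbol. All 9 were among the 38010 gene IDs of the deposited count table, and all 9 were among the 15184 that passed the filter on low counts. P-values measure the spread between cultures of 1 Rho0 and 1 parental line, so any other difference between these lines and an effect of lost respiration cannot be told apart. In bulk RNA, fewer cells of a kind and less RNA per cell cannot be told apart either.

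Calcium crosses both mitochondrial membranes to reach the matrix. VDAC proteins form the abundant pores of the outer membrane, through which ions and metabolites pass. The uniporter complex then carries calcium across the inner membrane, driven by the membrane potential. Its pore is made of MCU, and MCUB is a paralog that enters the same complex and lowers its conductance. SMDT1 encodes EMRE, a small protein that the channel needs in animals. MICU2 is a calcium-sensing gatekeeper of the channel. MCUR1 is an assembly factor of the complex, and LETM1 is an inner membrane protein of cation exchange. In endothelial cells, mitochondrial calcium uptake shapes cytosolic calcium signals near the endoplasmic reticulum.

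The 300-base promoter windows of MCUB and MCU are shown because these paralogs encode subunits of the same pore and differed in response. Both windows are RefSeq sequence of GRCh38.p14, plus strand, from 250 bases before the start of a RefSeq transcript to 50 after it. These RefSeq starts lie slightly downstream of the GENCODE gene starts given with the values. Capitals mark GC boxes (GGGCGG, read on both strands). The MCUB window is chr4:109559996-109560295 and that of MCU, the upstream one of its 2 windows, is chr10:72691893-72692192.
MCUB: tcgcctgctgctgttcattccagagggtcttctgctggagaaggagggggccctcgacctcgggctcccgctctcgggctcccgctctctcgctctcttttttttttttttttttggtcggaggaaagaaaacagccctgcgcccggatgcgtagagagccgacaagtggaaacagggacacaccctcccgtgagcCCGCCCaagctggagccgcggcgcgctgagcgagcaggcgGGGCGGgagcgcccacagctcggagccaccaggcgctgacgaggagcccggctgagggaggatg
MCU: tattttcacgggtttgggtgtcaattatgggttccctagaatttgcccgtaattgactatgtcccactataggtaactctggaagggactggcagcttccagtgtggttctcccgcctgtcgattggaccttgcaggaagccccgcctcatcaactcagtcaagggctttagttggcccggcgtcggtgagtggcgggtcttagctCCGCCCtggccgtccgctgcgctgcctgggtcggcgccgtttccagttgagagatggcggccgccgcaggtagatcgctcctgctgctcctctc
The MCUB window held 2 GC boxes, 26 CpG dinucleotides and 65% G and C. The MCU window shown held 1 GC box, 20 CpG and 59% G and C, and the other MCU window held 2 GC boxes, 16 CpG and 64% G and C, so the number of GC boxes does not separate the paralogs. Across 35116 promoter windows of the same length, 45.0% held a GC box, the median number of CpG was 14 and the median G and C content was 58.7%. None of these 3 windows held the ETS core CCGGAAG (10.3% of all windows) or the CRE TGACGTCA (1.85%), each read on both strands. Of the 7 genes whose windows were scanned, VDAC1 and VDAC2 had the ETS core, each in 1 of its windows, and none had the CRE. No window of LETM1 or VDAC3 was scanned. A match or its absence is a description of these letters alone.

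Libraries held 11721708 to 37203507 estimated counts, so that 1 count was worth 0.0225 to 0.0753 CPM. CPM here is the usual depth-scaled count, over the library size after scaling by trimmed mean of M-values (TMM). The 13 protein-coding mRNAs of mitochondrial DNA made up 0.00296% to 0.00756% of Rho0 replicates 1, 3 and 4, 0.149% of Rho0 replicate 2, which was also the shallowest library, and 16.05% to 21.4% of parental libraries. Most endothelial markers were present in both lines, PECAM1 at 2118 and 1086 CPM and CDH5 at 1034 and 1718 CPM in Rho0 and parental cells. Of 10 endothelial markers, 4 were called higher and 2 lower, and CLDN5 was too low to test, at 0.147 CPM in Rho0 and 0.496 CPM in parental cells. KDR, a receptor of vascular endothelial growth factor, had the largest fold change of the list, with 131 CPM in Rho0 and 13.8 CPM in parental cells. The 10 markers summed to 6273 to 7031 CPM in Rho0 libraries and 5671 to 6432 CPM in parental libraries. Of 8 epithelial markers of the A549 partner, 6 could be tested, of which 1 was called higher (EPCAM, log2 fold change 1.13) and 3 lower (KRT8, KRT18 and CLDN4). The 8 summed to 1296 to 2081 CPM in Rho0 libraries and 2611 to 2883 CPM in parental libraries, nearly all from KRT7, KRT8 and KRT18, each of the other 5 averaging under 3 CPM in both lines. Fibroblast markers summed to 1.45 to 2.31 CPM in Rho0 libraries and 1.71 to 2.62 CPM in parental libraries. Of 6 leukocyte markers, CD3E was at 0 and only CD68 exceeded 2 CPM, at 127 and 104 CPM in Rho0 and parental cells. The part of the epithelial difference in the values that follow was not tested.

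Of the 9 genes, 5 were called lower in Rho0 cells and 0 were called higher (edgeR quasi-likelihood test, adjusted p of 0.05 over all genes tested). MCUB and VDAC3 fell to less than 0.5 of the parental level. SMDT1, VDAC2 and VDAC1 had smaller falls. MCU, MICU2, MCUR1 and LETM1 were not called. Across all 15184 genes, 54.4% were called, 29.0% higher and 25.4% lower, so that a call in this comparison is frequent for any gene. A fall of the size of MCUB's and VDAC3's was rarer. Of the genes tested, 5.51% were called lower with a log2 fold change of -1 or less. The median log2 fold change was -0.20 for the 9 genes and 0.05 for all genes tested. By DESeq2 and limma-voom the counts of genes called lower were 4 and 5, with 0 higher.

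**Figure D1:**
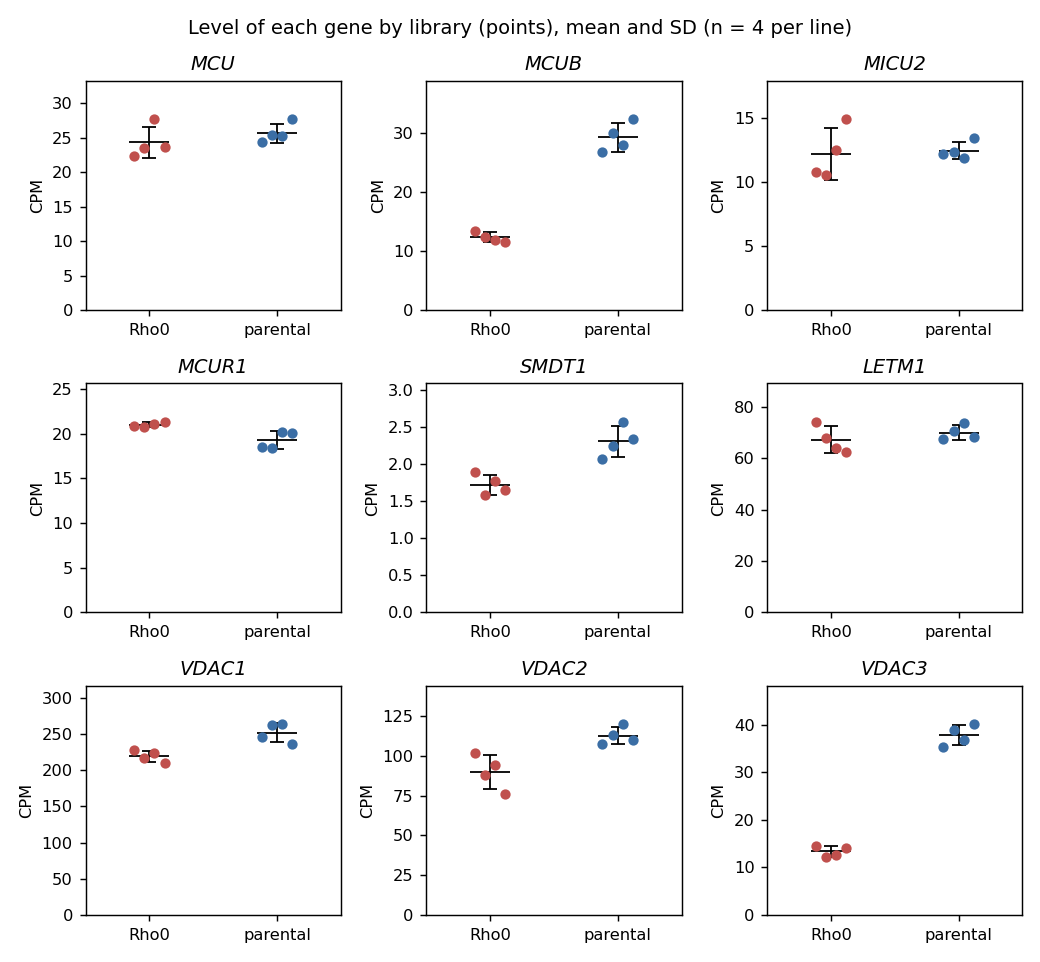
Level of each of the 9 genes in CPM over the TMM-scaled library size, in 4 Rho0 (red) and 4 parental (blue) libraries, with points for libraries and bars for the mean and SD. The lines are far apart for MCUB and VDAC3, narrowly apart for SMDT1, VDAC1, VDAC2 and MCUR1, and overlap for MCU, MICU2 and LETM1. How many of all genes tested had lines apart was not counted, and 54.4% of them were called. Lines being apart is therefore not read as a trait of these genes.

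The direction of several smaller differences changed when libraries were scaled by size alone. TMM factors were 1.11 to 1.19 in Rho0 libraries and 0.801 to 0.921 in parental libraries. With libraries scaled by size alone, all genes tested had a median of 0.44 on the log2 scale, against 0.05 with TMM, and 84.8% of called genes were higher, against 53.3% with TMM. Under that scaling MCUB and VDAC3 were still called lower, at -0.87 and -1.10. MCU, MICU2, MCUR1, LETM1 and VDAC1 were then called higher, at 0.31, 0.37, 0.52, 0.33 and 0.19. SMDT1 and VDAC2 were at -0.02 and 0.07 and were not called. Among the 21 alternatives, VDAC1 and VDAC2 each changed sign in 1, that with library size alone. With DESeq2 size factors they were called lower at -0.23 and -0.36, and without mitochondrial genes at -0.21 and -0.34.

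**Figure D2:**
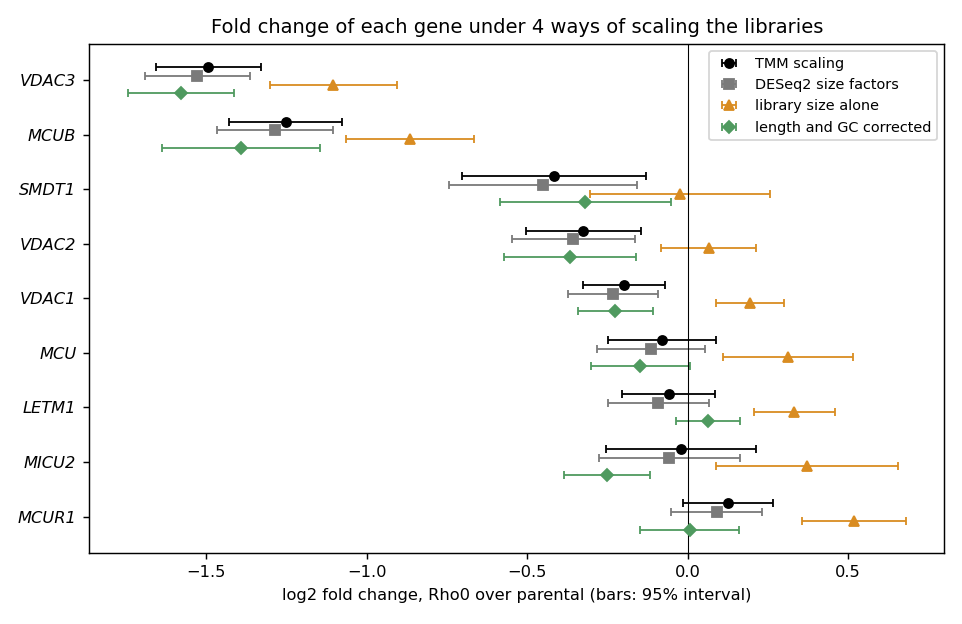
Log2 fold change of each gene, Rho0 over parental, with 95% intervals from the standard error, under TMM scaling, DESeq2 size factors, library size alone and with length and GC content corrected for. VDAC3 and MCUB lie at -0.87 or lower under all 4, whereas the other 7 genes lie between -0.45 and 0.52 and 5 of them have values on both sides of 0.

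The pore subunits differed in their response. MCU (ENSG00000156026, chromosome 10, 72692131 to 72887694, GRCh38) had 22.4, 23.5, 27.7 and 23.65 CPM in Rho0 replicates 1 to 4, against 24.4, 25.4, 25.2 and 27.7 CPM in parental replicates 1 to 4. The ranges of the lines overlapped over most of their length. Its log2 fold change was -0.08 (SE 0.09, edgeR adjusted p = 0.457), with a 95% normal interval of -0.25 to 0.09 from the standard error. That interval excludes a change of the size seen for MCUB, while a fall of up to 0.25 on the log2 scale is not excluded.

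MCUB (ENSG00000005059, chromosome 4, 109560205 to 109688726), the subunit that lowers conductance, had 13.5, 12.4, 11.9 and 11.5 CPM in Rho0 replicates 1 to 4, against 26.8, 30.1, 28.0 and 32.4 CPM in parental replicates 1 to 4. Every Rho0 library lay below every parental library, and the gap between the lines was wider than the range within either. The log2 fold change was -1.25 (SE 0.09, edgeR adjusted p = 1.0e-06), which put the Rho0 level at 0.42 of the parental level. Of all genes tested, 3.96% had a lower log2 fold change. In either direction, 1560 of the 15184 genes tested had a larger change. The 3′ end of MCUB overlaps CASP6, a caspase gene on the opposite strand, by 105 bases. CASP6 itself was not called (log2 fold change -0.22, adjusted p = 0.0911). The kit keeps strand, but the sources used here do not say whether the counting used it.

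Regulators of the pore showed small or no differences. SMDT1 (ENSG00000183172, chromosome 22, 42079691 to 42084284), which encodes EMRE, had 1.89, 1.58, 1.77 and 1.65 CPM in Rho0 replicates 1 to 4, against 2.07, 2.25, 2.58 and 2.34 CPM in parental replicates 1 to 4. The lines did not overlap, but the nearest libraries were close. With TMM scaling SMDT1 fell by 0.42 on the log2 scale (SE 0.15, edgeR adjusted p = 0.0325), and it was not called at -0.02 when libraries were scaled by size alone. In the authors' log2 values the difference was smaller, at -0.25, and called by limma-trend (adjusted p = 0.0255). Those values were read here as log2 of the level plus 1, which shrinks differences at low levels. With the 1 removed, the log2 difference of the SMDT1 to MCU ratio was -0.31, against -0.34 from the counts. The call also did not hold when any 1 of parental replicates 2, 3 and 4 or Rho0 replicates 2, 3 and 4 was left out (adjusted p = 0.0567 to 0.0825). These values rest on 20.99 to 73.2 estimated counts in Rho0 libraries and 45.1 to 56.6 in parental libraries.

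The SMDT1 row is not the only row with its values. A further 2 gene IDs, ENSG00000272835 and ENSG00000274112, held the same estimated counts in all 8 libraries, and the annotation used here does not name them. No other member had such a row. The relation of these IDs to SMDT1 was not tested. The CPM of SMDT1 is therefore uncertain as a level. Summed over the 3 rows it was 5.17 ± 0.410 CPM in Rho0 cells and 6.93 ± 0.634 CPM in parental cells (SD, n = 4 each). With that sum, an alternative chosen after seeing the data, the log2 fold change was -0.42 (SE 0.11, edgeR adjusted p = 0.0089).

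MICU2 (ENSG00000165487, chromosome 13, 21492691 to 21604214), the gatekeeper, had 10.8, 10.5, 12.5 and 14.9 CPM in Rho0 replicates 1 to 4, against 12.2, 12.3, 11.9 and 13.4 CPM in parental replicates 1 to 4. Rho0 replicate 4 was the highest of the 8 libraries and Rho0 replicate 2 the lowest, so the parental libraries lay inside the Rho0 range. The log2 fold change was -0.02 (SE 0.12, edgeR adjusted p = 0.896; interval -0.25 to 0.21). MICU2 was called lower at -0.25 (adjusted p = 0.0078) when length and GC content were corrected for and called higher at 0.37 with libraries scaled by size alone, so no direction can be given.

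MCUR1 (ENSG00000050393, chromosome 6, 13786557 to 13814568), the assembly factor, had 20.8, 20.7, 21.1 and 21.3 CPM in Rho0 replicates 1 to 4, against 18.5, 18.4, 20.2 and 20.1 CPM in parental replicates 1 to 4. The lines did not overlap, with a narrow gap, and MCUR1 was the only one of the 9 genes with a higher Rho0 mean. With TMM scaling the difference was not called (0.12 on the log2 scale, SE 0.07, edgeR adjusted p = 0.165; interval -0.02 to 0.26), and it was at 0.0056 when length and GC content were corrected for. LETM1 (ENSG00000168924, chromosome 4, 1811479 to 1856247) had 74.3, 67.9, 64.0 and 62.6 CPM in Rho0 replicates 1 to 4, against 67.4, 70.6, 73.9 and 68.1 CPM in parental replicates 1 to 4. Rho0 libraries lay both above and below the parental libraries. Its log2 fold change was -0.06 (SE 0.07, edgeR adjusted p = 0.522; interval -0.20 to 0.09).

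Among the outer membrane channels, VDAC3 stood apart from VDAC1 and VDAC2. VDAC3 (ENSG00000078668, chromosome 8, 42391624 to 42405897) had 14.4, 12.3, 12.6 and 14.2 CPM in Rho0 replicates 1 to 4, against 35.4, 39.0, 36.7 and 40.1 CPM in parental replicates 1 to 4. The highest Rho0 library was below 0.5 of the lowest parental library. The log2 fold change was -1.49 (SE 0.08, edgeR adjusted p = 1.5e-07), at 0.36 of the parental level. Of all genes tested, 2.95% had a lower one, and 1148 of 15184 had a larger change in either direction. Under the 21 alternatives its log2 fold change was between -1.58 and -1.10, called each time.

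VDAC1 (ENSG00000213585, chromosome 5, 133971915 to 134005133), usually the most abundant isoform, had 228, 217, 224 and 210.5 CPM in Rho0 replicates 1 to 4, against 246, 263, 264 and 236 CPM in parental replicates 1 to 4. The lines did not overlap, and the nearest libraries were Rho0 replicate 1 and parental replicate 4. With TMM scaling VDAC1 fell by 0.20 on the log2 scale (SE 0.07, edgeR adjusted p = 0.0244), but it was called higher at 0.19 with libraries scaled by size alone. The fall was not called without parental replicate 2 (adjusted p = 0.0783), parental replicate 3 (0.0578) or Rho0 replicate 2 (0.0565). VDAC1 has 13 processed copies in the genome that were counted as genes of their own. Together they held 1.39% to 2.10% of the VDAC1 counts, nearly all in VDAC1P8, and adding them changed no call.

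VDAC2 (ENSG00000165637, chromosome 10, 75210154 to 75231448), the isoform that binds and restrains the death effector BAK, had 102, 88.2, 94.0 and 76.0 CPM in Rho0 replicates 1 to 4, against 108, 113, 120.0 and 110.0 CPM in parental replicates 1 to 4. Rho0 replicate 1 came close to the lowest parental library and Rho0 replicate 4 was well below it. With TMM scaling VDAC2 fell by 0.33 on the log2 scale (SE 0.09, edgeR adjusted p = 0.0111), a call held without each library in turn (adjusted p = 0.0021 to 0.0341), whereas it was at 0.07 and not called with libraries scaled by size alone.

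Ratios of counts within a library do not depend on how libraries are scaled, and 6 were compared between the lines. A ratio of counts also depends on transcript length, which is the same in both lines unless isoform use differs, so only its difference between lines is read here. MCUB counts were 0.600, 0.526, 0.430 and 0.485 of MCU counts in Rho0 replicates 1 to 4, against 1.10, 1.18, 1.11 and 1.17 in parental replicates 1 to 4. The MCUB to MCU ratio was 2.25-fold lower in Rho0 cells, a log2 difference of -1.17 with log2 SDs of 0.20 in Rho0 and 0.05 in parental cells. VDAC3 counts were 0.142, 0.139, 0.134 and 0.186 of VDAC2 counts in Rho0 replicates 1 to 4, against 0.329, 0.344, 0.306 and 0.365 in parental replicates 1 to 4. That ratio too was 2.25-fold lower in Rho0 cells (log2 difference -1.17). In both ratios the lines were separated by more than the range within either line.

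SMDT1 counts were 0.0843, 0.0673, 0.0638 and 0.0697 of MCU counts in Rho0 replicates 1 to 4, against 0.0847, 0.0885, 0.102 and 0.0846 in parental replicates 1 to 4. Rho0 replicate 1 was just below the lowest parental library, and the log2 difference was -0.34. For these 3 ratios the two-sided exact permutation p was 0.0286, the smallest that 70 arrangements allow, and 0.0571 after Benjamini-Hochberg adjustment over the 6 ratios. No adjusted p of these ratios therefore passed 0.05. MCUR1 to MCU (log2 difference 0.21, exact p = 0.0571, adjusted 0.0857) and VDAC1 to VDAC2 (0.13, exact p = 0.0857, adjusted 0.103) overlapped between the lines. MICU2 to MCU was at 0.04 (exact p = 0.971).

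**Figure D3:**
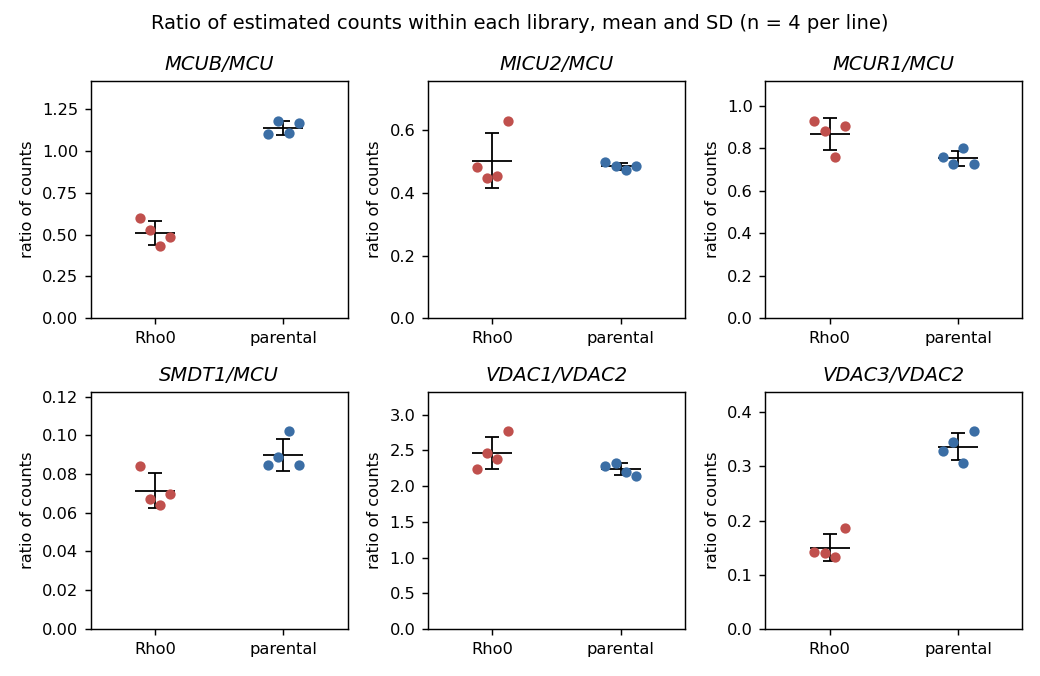
Ratio of the estimated counts of 2 genes within each library, for 6 pairs, in 4 Rho0 (red) and 4 parental (blue) libraries, with the mean and SD. MCUB to MCU averaged 0.510 in Rho0 and 1.14 in parental libraries, and VDAC3 to VDAC2 averaged 0.150 and 0.336, while MICU2 to MCU overlapped.

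Levels can be compared between genes only per length. With CPM divided by the length in kilobases of the longest protein-coding transcript in GENCODE 29, VDAC1 was highest in both lines, at 113 ± 3.90 CPM per kilobase in Rho0 and 129 ± 6.92 in parental cells (SD, n = 4 each). VDAC2 followed at 57.8 ± 6.95 in Rho0 and 72.4 ± 3.43 in parental cells. In Rho0 cells the order after them was LETM1, VDAC3, MCU, MICU2, MCUB, MCUR1 and SMDT1. MCU and MICU2 overlapped over libraries there, as did MICU2 and MCUB. In parental cells the order was VDAC3, MCUB, LETM1, MCU, MICU2, MCUR1 and SMDT1, with overlap between MCUB and LETM1 alone.

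MCUB thus ranked above MCU in parental cells, at 12.9 ± 1.07 against 7.97 ± 0.431 CPM per kilobase, and below it in Rho0 cells, at 5.40 ± 0.375 against 7.54 ± 0.719. As a share of MCU and MCUB together, MCUB made up 41.8 ± 3.40% in Rho0 cells and 61.7 ± 0.872% in parental cells. VDAC3 made up 5.49 ± 0.559% of the per-length level of the VDAC genes in Rho0 cells and 12.2 ± 0.889% in parental cells. VDAC1 made up 62.5 ± 1.64% in Rho0 and 56.3 ± 1.11% in parental cells, and VDAC2 31.99 ± 2.00% and 31.5 ± 0.641%. The assumed length moves these levels, and with the median length of protein-coding transcripts VDAC3 ranked above LETM1 and MCUB below MCUR1 in Rho0 cells. MICU2 then ranked above MCU in both lines, with overlap over libraries. VDAC1 stayed highest, but in parental cells it overlapped VDAC2, at 137 ± 7.34 against 121 ± 5.74 CPM per kilobase. In Rho0 cells VDAC1 was at 119 ± 4.14 and VDAC2 at 96.6 ± 11.6, without overlap. With that length VDAC3 made up 7.56 ± 0.804% in Rho0 and 16.2 ± 1.10% in parental cells, and MCUB 39.3 ± 3.33% and 59.3 ± 0.891% of the MCU pair. The rank of SMDT1 is uncertain for the reason given above, since its 3 rows together came to 3.30 CPM per kilobase in Rho0 and 4.42 in parental cells.

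The profile of VDAC3 over the 8 libraries, on the log2 CPM scale relative to its parental mean, was closest to those of TSPAN5, CDC25A and INO80C among genes with a mean of at least 10 CPM. Their root mean square differences from VDAC3 were 0.0794, 0.0912 and 0.0959 log2 units. Of the members, MCUB was closest to VDAC3, at 0.197, and the other 7 lay at 0.781 to 1.148. Among the rest, SMDT1 and VDAC2 (0.0997) and LETM1 and VDAC1 (0.113) were the closest pairs. With 2 lines this measure mostly reflects the size of the difference between them.

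The 9 genes lie on 7 chromosomes, LETM1 and MCUB sharing chromosome 4 and MCU and VDAC2 chromosome 10. For each, the 5 nearest tested protein-coding genes on either side were examined, a comparison chosen after the fold changes were seen. Around VDAC3, 8 of 10 neighbours were called lower and 0 higher, and their log2 fold changes had a median of -0.61, from -0.97 to 0.08. They included AP3M2, a subunit of a vesicle adaptor (-0.97), PLAT, tissue plasminogen activator (-0.79), and IKBKB, a kinase of NF-κB signalling (-0.56). VDAC3 was lower than each of them. Within 5 Mb on either side of VDAC3, 16 of 40 genes were called higher and 15 lower, with a median of 0.01.

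Around SMDT1, 6 of 10 neighbours were called lower and 1 higher, with a median of -0.68. All 5 neighbours on its lower-coordinate side fell, among them SREBF2, a regulator of cholesterol synthesis (-1.01). Around MCUB, 5 of 10 were lower and 2 higher, with a median of -0.30, HADH being lowest at -1.09 and CYP2U1 highest at 3.55. Within 5 Mb of SMDT1, 26 of 126 genes were called higher and 54 lower, with a median of -0.19, and within 5 Mb of MCUB 3 of 28 were higher and 11 lower, with a median of -0.21. For the other 6 genes the medians of the 10 neighbours were between -0.04 and 0.42. Among all 13382 protein-coding genes tested, 26.1% were called lower and 30.6% higher. These data give expression alone, and the copy number of these regions was not tested.

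**Figure D4:**
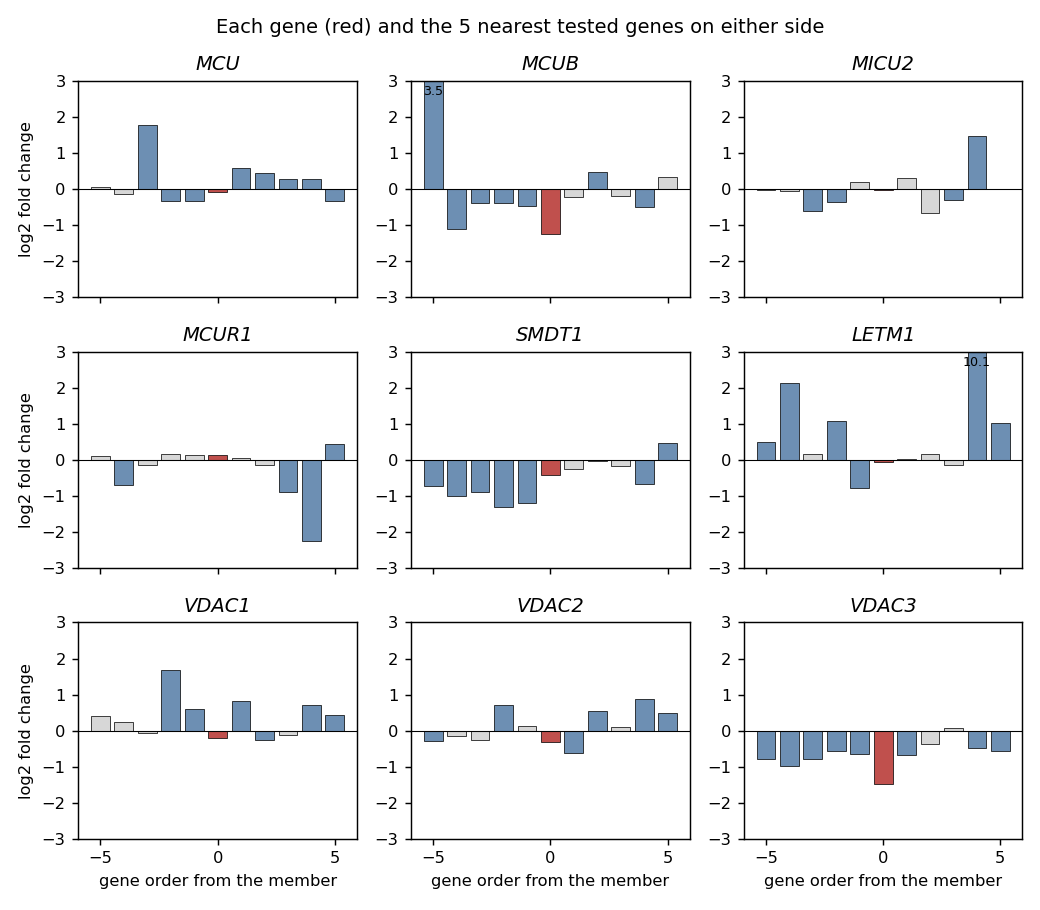
Log2 fold change, Rho0 over parental, of each of the 9 genes (red, place 0) and of the 5 nearest tested protein-coding genes on either side (blue where called, grey where not), by gene order and drawn between -3 and 3 with larger values written in. Neighbours of VDAC3 are nearly all below 0, with a median of -0.61, while those of VDAC1 and LETM1 lie mostly above 0.

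Other genes of mitochondrial calcium transport went both ways. Of 12 listed, 4 were called higher and 3 lower, with a median log2 fold change of 0.05, equal to that of all genes. Counts of this and the following lists stand beside 29.0% called higher and 25.4% called lower among all genes tested. SLC8B1, which encodes the sodium-calcium exchanger, was not called (log2 fold change 0.16, edgeR adjusted p = 0.138). YME1L1, an inner membrane protease that takes part in EMRE turnover, rose 1.77-fold, to 100.1 ± 15.6 CPM in Rho0 cells, against 56.7 ± 1.76 CPM in parental cells. AFG3L2, a subunit of the protease that degrades unassembled EMRE, fell by 0.51 on the log2 scale. The LETM1 paralog LETM2 rose 1.54-fold, to 8.27 ± 0.705 CPM in Rho0 cells, against 5.32 ± 0.488 CPM in parental cells. SLC8B1 was named here after its values were seen.

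Of 21 listed genes of VDAC partners and of contacts with the endoplasmic reticulum, 9 were called lower and 1 higher, with a median of -0.22. The list is not confined to outer membrane proteins, since it includes SLC25 carriers, PPIF and HSPA9. Among all genes tested, 25.4% were called lower and 29.0% higher. BAK1, the death effector held by VDAC2, was at 17.8 ± 2.49 CPM in Rho0 cells, against 37.2 ± 2.16 CPM in parental cells (log2 fold change -1.06, SE 0.10, edgeR adjusted p = 1.1e-05). PPIF, the cyclophilin of the permeability transition pore, fell by 0.93, and FIS1, an outer membrane fission adaptor, by 0.76. The 1 gene called higher, named after its values were seen, was HSPA9, the chaperone that bridges VDAC1 and the inositol trisphosphate receptor, at 280.0 ± 15.96 CPM in Rho0 and 187 ± 9.01 CPM in parental cells.

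Calcium handling at the endoplasmic reticulum and the cell surface had 5 of 16 genes higher and 4 lower, with a median of -0.05. These counts are near the shares of all genes tested, 29.0% higher and 25.4% lower. The calcium pump gene ATP2A3 rose 5.41-fold, to 24.1 ± 3.79 CPM in Rho0 cells, against 4.45 ± 0.999 CPM in parental cells (edgeR adjusted p = 1.1e-06). ITPR1, an inositol trisphosphate receptor, rose 2.78-fold, and the plasma membrane pump ATP2B1 1.75-fold. ITPR2, a paralog of ITPR1, was also called higher (log2 fold change 0.59, edgeR adjusted p = 0.0268), though its libraries overlapped between the lines. It was named after its values were seen. Paralogs that fell were ITPR3 and ATP2B4. ITPR3 was at 622 ± 47.8 CPM in Rho0 and 854 ± 38.6 CPM in parental cells (log2 fold change -0.46), and ATP2B4 at 153 ± 14.1 CPM in Rho0 and 247 ± 13.3 CPM in parental cells (-0.69). The other genes called lower were ORAI2 (-0.58) and ORAI3 (-0.40), which encode store-operated calcium channels, and all 4 were named after their values were seen. Of 11 genes of calcium-sensitive matrix dehydrogenases and their regulators, 1 was higher and 4 lower, with a median of -0.13. PDP1, the phosphatase that activates pyruvate dehydrogenase, rose 1.86-fold, while the oxoglutarate dehydrogenase gene OGDH fell by 0.89 and the pyruvate dehydrogenase subunit gene PDHA1 by 0.58.

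**Figure D5:**
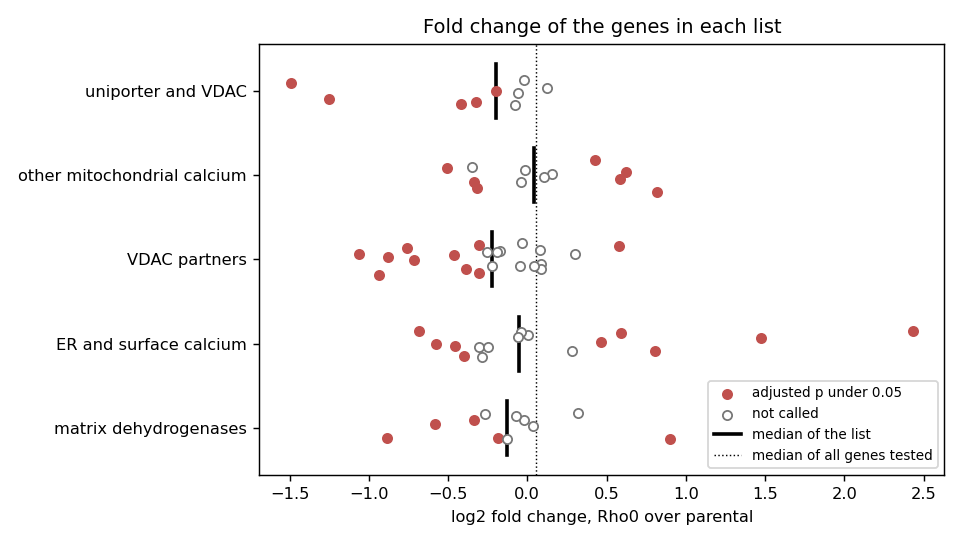
Log2 fold change, Rho0 over parental, of the genes in 5 lists, filled where called and open where not, with the median of each list as a bar and that of all genes tested as a dotted line. VDAC3 and MCUB are the lowest of all points shown, and ATP2A3 (2.44) and ITPR1 (1.48) the highest.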

How the data were processed

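Strand-specific libraries of polyadenylated RNA were prepared from 2 ng of RNA isolated with RNAzol, per the labels. What the authors deposited was a table of estimated counts (not normalized) and a table of log2 normalized values, and GRCh38, kallisto, limma and edgeR appear in the submitters' processing notes with neither version nor role. Which annotation was counted is not given here. Symbols came from a gene table and GENCODE release 29 (GRCh38), which named 34284 of 38010 IDs.

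After rounding, the deposited counts entered edgeR 4.0.16 under R 4.3.3. Genes were kept by filterByExpr (minimum 10), libraries were scaled by TMM, and the lines were compared by the quasi-likelihood F-test. Genes were called at a Benjamini-Hochberg adjusted p of 0.05 over the 15184 tested. A standard error is the absolute log2 fold change divided by the square root of F. The 95% intervals use a normal quantile of that error. They are therefore somewhat narrower than intervals that use the degrees of freedom of the test. The procedure was also run on simulated counts with few changed genes and no loss of mitochondrial mRNAs like that of Rho0 cells. That run therefore does not test how these libraries should be scaled. Libraries of a line differed by more than sampling noise. Chi-square per degree of freedom was 4.21 to 29.4 between parental libraries and 6.54 to 107 between Rho0 libraries, highest for Rho0 replicates 1 and 4. The biological coefficient of variation was 13.7%.

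All 9 members are named in full. Of each list, up to 3 called genes with the largest change and at least 5 CPM in the higher line are named. Profiles were compared on log2 of CPM plus 0.1. Members and lists were chosen with earlier results of these data known, so no list is independent evidence. Alternatives were DESeq2 size factors, library size alone, totals without mitochondrial genes, 2 other filters, DESeq2 1.42.0, limma-voom (limma 3.58.1), limma-trend on the authors' log2 values, a robust fit, a replicate block, members summed with processed copies, a length and GC correction (known for 93.7% of genes tested) and leaving out each library. Summing SMDT1 with rows of the same values was chosen after seeing the data. The number of counts limits precision mainly for SMDT1.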

Additional observations from a re-analysis of the deposited data

Results flagged for a closer look

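The VDAC3 to VDAC2 count ratio in Rho0 replicate 4 was 0.186, far from the other 3 Rho0 libraries, which lay at 0.134 to 0.142. It remained below the lowest parental ratio of 0.306. Of 30 groups of 4 libraries examined in this way for the 9 genes and 6 ratios, this was the only one so marked, and chance marks about 1 in 20.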

How the results depend on the processing

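The falls of MCUB and VDAC3 were called under all 21 alternatives, at -1.39 to -0.87 and -1.58 to -1.10 on the log2 scale. With libraries scaled by size alone, 5 members were called higher and 2 lower. The values were then 0.31 for MCU, 0.37 for MICU2, 0.52 for MCUR1, -0.024 for SMDT1, 0.33 for LETM1, 0.19 for VDAC1 and 0.065 for VDAC2. All genes called were 8583 higher and 1540 lower, against 4399 and 3858 with TMM. After correction for length and GC content LETM1 was at 0.063 (not called), MICU2 was called at -0.25, SMDT1 was not called at -0.32, and MCUR1 was at 0.0056. In the authors' log2 values SMDT1 was called at -0.25. With that correction 48.6% of called genes were higher, and with DESeq2 49.6%. Without a filter, 3 members were called lower, SMDT1 (-0.40) and VDAC1 (-0.19) losing their calls, and with at least 50 counts in 4 libraries MICU2 was at 0.0065. SMDT1 was at -0.45 and not called by DESeq2. The cause of these changes was not tested.

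Same-numbered libraries did not clearly deviate together (correlations -0.13 to 0.16 over genes, 1 of 4 above 0.1, and 1 of 4 Rho0 libraries closest to its own number). The main fit used no pairing. With 4 pairs, a shared preparation of same-numbered cultures is not excluded. With a replicate block 3 members were called lower, with SMDT1 at -0.42 (adjusted p = 0.0811) and VDAC1 at -0.20 (adjusted p = 0.0517) not called. A paired sign-flip test of the ratios cannot go below 0.125.

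Leaving out 1 library gave 3 to 5 members called lower and 0 higher. It gave log2 fold changes of -0.17 to -0.05 for MCU, -1.33 to -1.21 for MCUB, -0.15 to 0.014 for MICU2, 0.10 to 0.14 for MCUR1, -0.49 to -0.37 for SMDT1, -0.14 to -0.03 for LETM1, -0.24 to -0.18 for VDAC1, -0.42 to -0.26 for VDAC2 and -1.56 to -1.47 for VDAC3. The 3 calls lower were reached without parental replicate 2 or 3 or Rho0 replicate 2. MICU2 changed sign without parental replicate 4 (0.010), Rho0 replicate 1 (0.014) or Rho0 replicate 2 (0.013). Log2 differences of ratios were -1.25 to -1.09 for MCUB to MCU, -0.076 to 0.089 for MICU2 to MCU, 0.17 to 0.27 for MCUR1 to MCU, -0.42 to -0.28 for SMDT1 to MCU, 0.076 to 0.18 for VDAC1 to VDAC2 and -1.28 to -1.12 for VDAC3 to VDAC2. MICU2 to MCU changed sign without Rho0 replicate 4 (-0.076). Without Rho0 replicate 1 or 3, the exact permutation p adjusted over the 6 ratios was 0.0429 for those of MCUB, SMDT1 and VDAC3. The same value was reached by VDAC1 to VDAC2 without replicate 1 and by MCUR1 to MCU without replicate 3. Each exact p behind these was 0.0286, the smallest that 35 arrangements allow. For MCUB, SMDT1 and VDAC3 it was 0.0286 with all libraries too. Their adjusted p was lower only because a further ratio reached that limit, so it does not mark a stronger difference. SMDT1, with 20.99 counts in its shallowest library, is limited most by depth.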
